A study of Mus musculus with 6 samples.

Results

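The ZIP proteins, encoded by the Slc39a genes, are membrane transporters that carry zinc into the cytosol, either from outside the cell or out of an intracellular compartment. The ZnT proteins (Slc30a genes) work in the opposite direction, metallothioneins hold zinc in the cytosol, and the transcription factor MTF-1 senses free zinc. Paneth cells, the antimicrobial secretory cells at the crypt base, are known for storing zinc in their granules. Described here are 10 listed ZIP genes, found by Ensembl identifier among the 55414 genes of a raw count table: Slc39a1, Slc39a3, Slc39a4, Slc39a5, Slc39a6, Slc39a7, Slc39a8, Slc39a10, Slc39a11 and Slc39a14. All 10 passed the filter on low counts that left 9749 genes for testing. The reference annotation holds 14 protein-coding Slc39a genes, and the 4 not listed are given once further on.

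Paneth cells of the small intestine of wild-type (WT) mice were sorted by FACS. The standard diet group ate standard chow and the zinc depleted group ate zinc depleted chow, each for 7 weeks, and TNF (tumor necrosis factor, an inflammatory cytokine) was then given to both groups, 3 hours ahead of sampling. Each group has 3 libraries by the labels, whereas the design text speaks of 4 replicates. The study's methods name the strain as C57BL/6J. The age and sex of the mice and the zinc status they reached were not found in the sources used here. No library without TNF was used, so every level below is a level 3 hours after TNF. By the study's account of its sorted Paneth cell samples, each came from an individual mouse; the labels of these libraries do not repeat it.

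Total counts ran from 6139397 to 12772373 per library. TMM factors, which rescale libraries so that most genes match, ran from 0.459 to 1.73, and were lowest in zinc depleted replicates 3 and 2. A count of 0 allows up to 3 counts, or 0.235 to 0.489 CPM (counts scaled to the same fixed total in every library). The 7 Paneth cell markers took 40.8% to 54.5% of the counts (Lyz1, Mmp7, Itln1, Ang4, Defa24, Pla2g2a and Reg3g), and each was detected in every library. Immune and stromal markers were at low levels. Of these, 2 of 8 immune markers (Cd3e and Itgax) and 1 of 5 stromal markers (Pdgfra) were at 0 in every library. The summed immune level stayed between 1.00 and 7.49 CPM. Goblet and stem cell markers were not low beside the importers. The goblet sum ran from 1547 to 6468 CPM and the stem cell sum from 472 to 3567 CPM. Both exceeded the summed level of the listed ZIP genes in every library, which ran from 134 to 444 CPM. Standard replicate 2 held the most enterocyte and tuft cell marker signal, and zinc depleted replicate 1 the most goblet cell marker signal. In bulk libraries, fewer cells of a type and less RNA per cell cannot be told apart.

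All 10 ZIP genes were detected in all 6 libraries, but together they were a small part of the transcriptome. They held 2648, 2164 and 2675 counts in standard replicates 1 to 3, and 4438, 1361 and 1714 counts in zinc depleted replicates 1 to 3. As a part of all counts this was 0.0134% to 0.0444%, with the lowest and the highest library both on the zinc depleted diet. After TMM scaling the sum was 209, 235 and 299 CPM on standard chow and 305, 287 and 292 CPM on zinc depleted chow, so that the groups overlapped.

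To rank the importers, CPM was divided by the length in kb of the canonical transcript, and the geometric mean was taken over the 6 libraries. Slc39a1, a ZIP of the cell surface in many tissues, led with 27.2 CPM per kb (17.5 to 57.4 over libraries). Slc39a11, the only mammalian member of the gufA subfamily, followed with 22.9 CPM per kb (11.2 to 37.5). These genes took the first and second rank in all 6 libraries, with Slc39a11 ahead in standard replicates 1 and 2 and Slc39a1 ahead in the other 4. The within-library log2 difference between them was 0.25 ± 0.74 (SD, n = 6), which does not exceed its spread (exact sign-flip permutation test, two-sided, p = 0.5, adjusted p = 0.643 over 9 neighbour pairs).

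Below this pair came a middle group. Slc39a4, the apical zinc importer of enterocytes whose human counterpart is mutated in acrodermatitis enteropathica, stood at 8.08 CPM per kb (2.98 to 16.3). Slc39a8, which also carries manganese and iron, stood at 7.58 CPM per kb (4.22 to 13.1). Slc39a14, its close relative with a similar range of metals, stood at 4.10 CPM per kb (1.31 to 7.32). The basolateral importer Slc39a5 stood at 3.86 CPM per kb but ranged most of all, from 1.37 to 12.9, a ratio of 9.42 between the highest and the lowest library against 3.11 for Slc39a8. Its rank moved from the third in standard replicate 1 to the seventh in zinc depleted replicate 2.

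The lowest group held Slc39a10 at 2.09 CPM per kb (0.972 to 3.94), Slc39a3 at 1.57 (0.474 to 3.48), Slc39a7 at 1.12 (0.522 to 2.24) and Slc39a6 at 0.577 (0.189 to 1.27). Slc39a10 and Slc39a6 belong to the LIV-1 subfamily, and Slc39a3 is a close relative of Slc39a1. Slc39a7 releases zinc from the endoplasmic reticulum into the cytosol. Slc39a6 was in the tenth place in every library, with only 12 to 63 counts. The level of Slc39a7 is uncertain: 2084 of its 2661 exonic bases also lie in exons of Gm20427, a long noncoding RNA annotated on the same strand, and Gm20427 was listed at 0 counts in every library. How reads that match both genes were counted is not given in the sources used here.

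**Figure D1:**
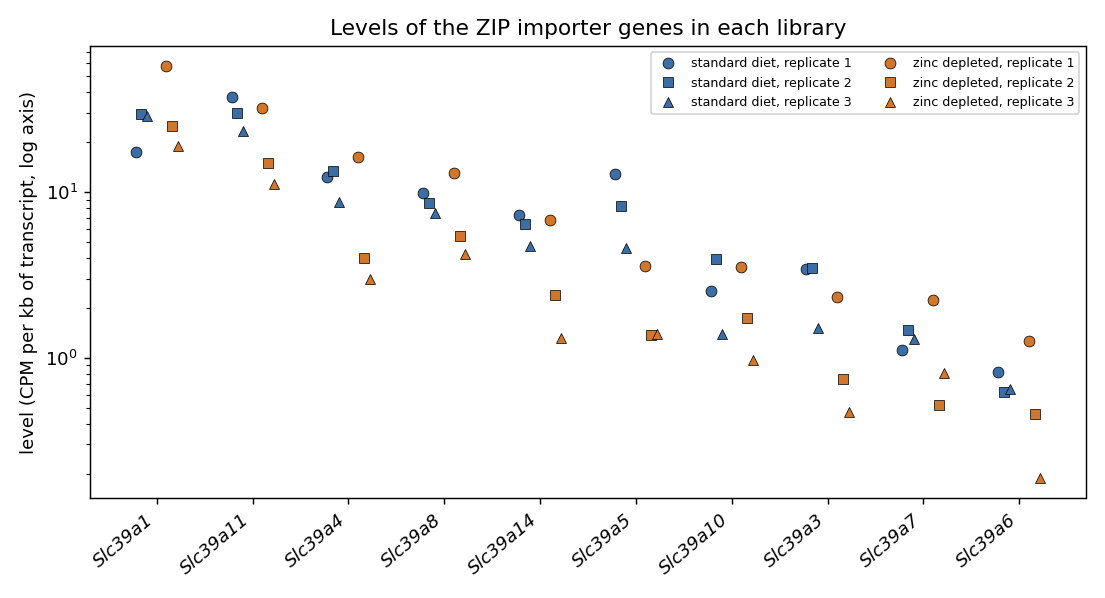
Level of each ZIP gene in each library, in CPM per kb of canonical transcript on a log axis, with blue points for the 3 standard diet libraries and orange points for the 3 zinc depleted libraries. Slc39a1 and Slc39a11 sit above 11 CPM per kb in every library, and Slc39a6 is lowest in each.

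Only some steps in this order were the same in every library. Slc39a11 exceeded Slc39a4 in 6 of 6 libraries, by 1.50 ± 0.38 on the log2 scale (SD). Slc39a8 exceeded Slc39a14 in 6 of 6, by 0.89 ± 0.49, and Slc39a7 exceeded Slc39a6 in 6 of 6, by 0.96 ± 0.67. Each of these 3 steps gave p = 0.03125 by the exact sign-flip permutation test, which is the smallest p that 6 libraries allow, and an adjusted p of 0.0938. The other 6 neighbour pairs did not hold one order throughout. Slc39a4 and Slc39a8 differed by 0.09 ± 0.46, and Slc39a14 and Slc39a5 by 0.08 ± 0.67. No neighbour pair passed 0.05 after adjustment. Ranking by coding length instead of transcript length left only 3 of the 10 genes in the same place, with Slc39a11 first and Slc39a1 second.

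Among the 9740 tested genes with a known length, the leading importers were well expressed. Slc39a1 ranked 542 and lay above 94.4% of those genes in level per kb, and Slc39a11 ranked 659 and lay above 93.2%. Slc39a4 lay above 83.2%, Slc39a8 above 80.4%, Slc39a5 above 71.8% and Slc39a14 above 69.4%. Slc39a10 and Slc39a3 were near the middle, above 49.9% and 44.6%. Slc39a7 and Slc39a6 lay in the lower part, above 31.0% and 15.3%.

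The diet comparison asks whether zinc depletion altered the ZIP transcripts of Paneth cells exposed to TNF. No importer passed the test: edgeR's quasi-likelihood test with Benjamini-Hochberg adjustment over all 9749 genes called 0 of the 10 at 0.05, and likewise 0 of all genes (0%). At an unadjusted p below 0.05 edgeR gave 1 importer, Slc39a5, where 6.62% of all tested genes reached that level. DESeq2 and limma-voom each called 0 importers and gave 2 at an unadjusted p below 0.05, Slc39a1 and Slc39a5. DESeq2 called 6 genes in the whole table and limma-voom 0.

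By sign alone, 6 importers were higher and 4 lower with zinc depletion under TMM scaling, with a median log2 difference of 0.19, where 50% of all tested genes were higher and their median was 0.00. Scaling by total counts only, 1 importer (Slc39a1) was higher and 9 were lower, with a median of -0.45, where 13.1% of all tested genes were higher and their median was -0.67. The sign of 5 importers (Slc39a6, Slc39a7, Slc39a8, Slc39a10 and Slc39a11) thus depends on the scaling, and the values below use TMM, which centres the median of all genes near 0. Relative to the median of all genes, Slc39a1 stood highest and Slc39a5 lowest of the 10 under either scaling.

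**Figure D2:**
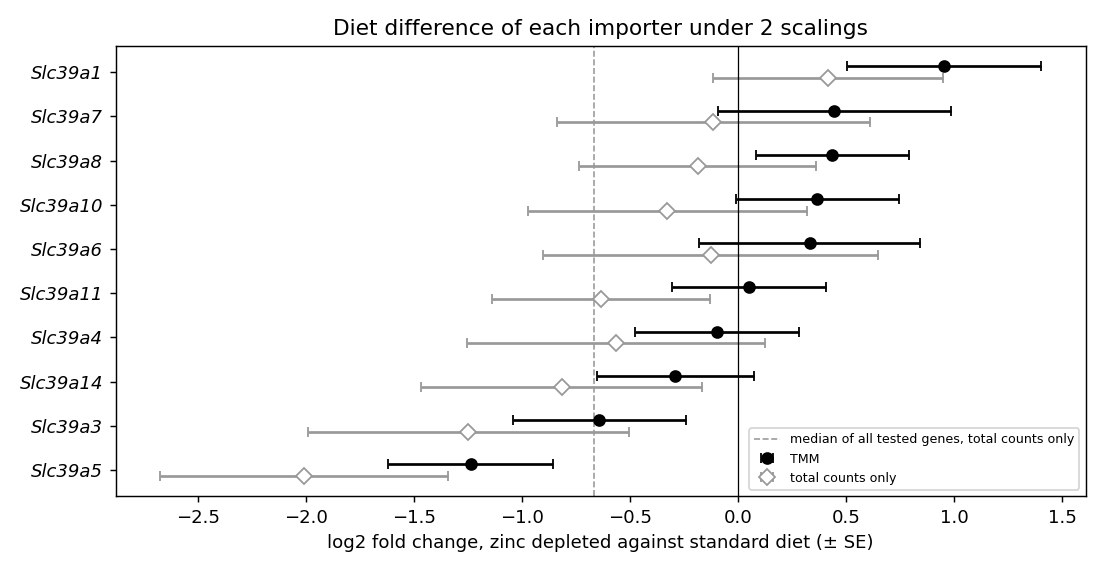
Log2 difference of each ZIP gene, zinc depleted against standard diet, with its standard error from edgeR under TMM scaling (black circles) and under scaling by total counts only (open diamonds); the dashed line marks the median of all tested genes under the latter, -0.67. Slc39a1 (0.95 under TMM) and Slc39a5 (-1.24 under TMM) stand at the ends of both series.

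Slc39a5 (ENSMUSG00000039878, chr10:128231799-128237121, minus strand, GRCm39) encodes an importer known from the basolateral membrane of enterocytes and from pancreatic acinar cells. It was counted 186, 100 and 90 times in the standard diet libraries and 71, 20 and 35 times in the zinc depleted ones. In CPM these are 25.3, 16.3 and 9.02 against 7.11, 2.69 and 2.74. All 3 zinc depleted libraries lay below all 3 standard diet libraries. Among the 10 listed importers this held in CPM for Slc39a5 only, where 10.3% of all tested genes were separated in this direction. TMM scaling gave 14.7, 10.8 and 10.1 CPM against 4.88, 4.22 and 5.97 CPM, again with no overlap. The log2 difference was -1.24 (SE 0.38, adjusted p = 0.681), and leaving out single libraries kept it between -1.33 and -1.05. It did not pass the adjusted threshold, and over all 14 alternatives the adjusted p ran from 0.123 to 1.00.

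In CPM, the summed enterocyte and stem cell markers were also lower with zinc depletion. On that scale 10.3% of all tested genes were separated downwards, and by total counts only 13.1% were higher. The 8 enterocyte markers summed to 89.4, 202 and 33.3 CPM in the standard diet libraries and to 26.5, 27.5 and 29.4 CPM in the zinc depleted ones, again without overlap. Only 4 of the 8 were detected in every library, while Alpi was at 0 in 3 libraries, Apoa4 and Rbp2 in 2 each and Apoa1 in 1. Slc5a1, the apical glucose transporter and one of these markers, had 349, 375 and 137 counts against 129, 43 and 82. Like Slc39a5 it was also separated on the TMM scale, where 6.58% of all tested genes were separated downwards. Its levels were 27.6, 40.7 and 15.3 CPM against 8.88, 9.07 and 14.0 CPM, with a log2 difference of -1.39 (SE 0.44, adjusted p = 0.681). Fabp2, another of these markers, differed the other way on that scale, at 18.8, 22.6 and 20.7 CPM against 7.16, 29.9 and 43.5 CPM. The log2 difference of Fabp2 was 0.37 (SE 0.55), and its groups overlapped. The enterocyte sum as a whole overlapped between diets after TMM scaling, at 51.9, 135 and 37.1 CPM against 18.2, 43.0 and 64.2 CPM. The 4 stem cell markers, mostly Olfm4, summed to 3567, 1356 and 1172 CPM against 565, 472 and 534 CPM, and overlapped after TMM scaling. The part of these cells in the Slc39a5 values was not tested.

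Slc39a1 (ENSMUSG00000052310, chr3:90155138-90160924, plus strand) differed in the other direction. Its counts were 304, 429 and 684 on standard chow and 1358, 441 and 576 on zinc depleted chow. In CPM the groups overlapped, at 41.4, 69.9 and 68.6 against 136, 59.4 and 45.1. TMM scaling gave 24.0, 46.5 and 76.5 CPM against 93.4, 93.0 and 98.3 CPM, a wide range on standard chow and near-equal values on zinc depleted chow. On that scale the groups did not overlap. Slc39a1 and Slc39a8 were the 2 importers separated upwards, where 3.51% of all tested genes were. The log2 difference was 0.95 (SE 0.45, adjusted p = 0.681). With single libraries left out it ran from 0.62, without standard replicate 1, to 1.48, without standard replicate 3, and with scaling by total counts only it was 0.42. Over all 14 alternatives its adjusted p ran from 0.198 to 1.00. The 7 goblet cell markers summed to 2864, 2953 and 1547 CPM on standard chow and to 6468, 1753 and 1859 CPM on zinc depleted chow, highest in the library where the unscaled Slc39a1 level was highest. After TMM scaling the goblet sums were 1663, 1967 and 1727 CPM against 4447, 2746 and 4051 CPM, separated upwards between diets as Slc39a1 was. No goblet marker alone was separated on that scale. Muc2 was at 839, 821 and 354 CPM against 3115, 374 and 284 CPM, highest in zinc depleted replicate 1. Fcgbp was at 149, 312 and 36.1 CPM against 189, 27.8 and 19.3 CPM. Tff3 was at 357, 455 and 693 CPM against 501, 1356 and 1435 CPM. Agr2 was at 274, 299 and 565 CPM against 497, 928 and 2263 CPM. Tff3 and Agr2 made up most of the goblet sum in zinc depleted replicates 2 and 3. Fcgbp (-1.07) and Zg16 (-0.11) had negative log2 differences, and the other goblet markers positive ones. The part of goblet cells in the Slc39a1 values was not tested.

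Slc39a1 has a processed copy elsewhere in the genome, and 431 of the 2295 75-base stretches of its transcript also occur in Slc39a1-ps or Gm75793. Slc39a1-ps itself had at most 1 count in any library. The other potential overlap of Slc39a1 is the noncoding Gm66066 on the opposite strand, which covers 1086 of its 4306 exonic bases. Opposite-strand exons also overlap Slc39a4 (Gm62519, 498 of 4166 bases, and Gm62526, 528). The same holds for Slc39a6 (Elp2, 509 of 11308), Slc39a10 (Dnah7c, 318 of 12175) and Slc39a11 (Cog1, 340 of 7177). Whether the counting used strand is not given in the sources used here.

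**Figure D3:**
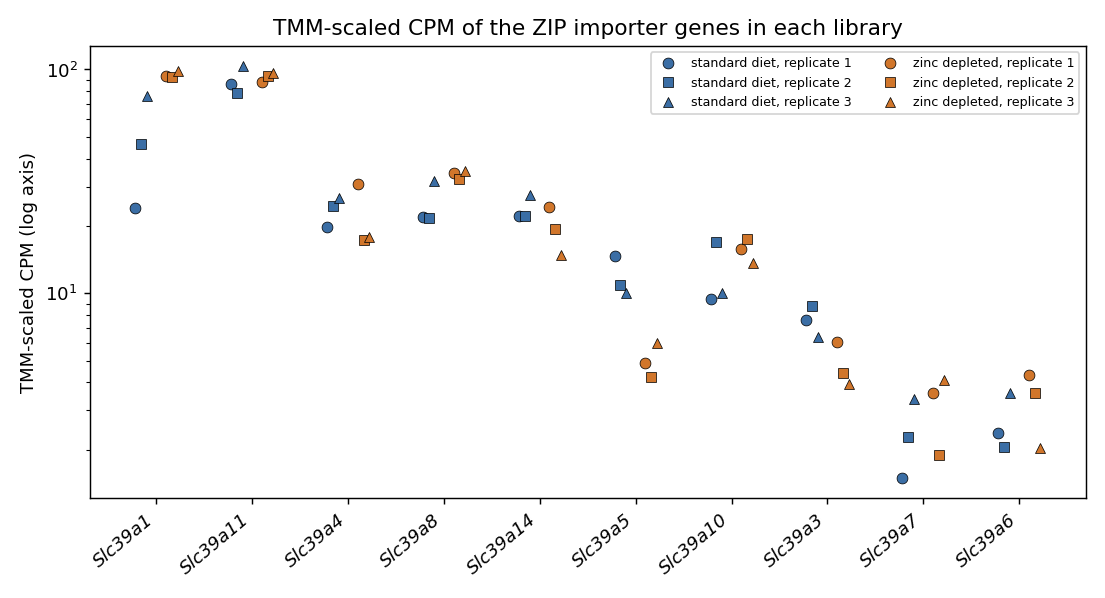
TMM-scaled CPM of each ZIP gene in each library, on a log axis, blue for standard diet and orange for zinc depleted diet. The groups do not overlap for Slc39a1 and Slc39a8 (zinc depleted higher) and for Slc39a5 and Slc39a3 (zinc depleted lower), and the 6 values of Slc39a11 lie closest together.

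Slc39a8 (chr3:135531040-135594333, plus strand) had 278, 201 and 284 counts against 502, 154 and 206. TMM-scaled levels were 22.0, 21.8 and 31.8 CPM on standard chow and 34.5, 32.5 and 35.2 CPM on zinc depleted chow. The gap between the highest standard diet and the lowest zinc depleted library was small beside the spread within the standard diet group, and in CPM the groups overlapped. The log2 difference was 0.44 (SE 0.35, adjusted p = 0.732).

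Slc39a3 (chr10:80864372-80873260, minus strand) had 96, 81 and 57 counts against 88, 21 and 23. Its TMM-scaled levels were 7.59, 8.79 and 6.38 CPM on standard chow and 6.05, 4.43 and 3.92 CPM on zinc depleted chow. These too did not overlap, so that Slc39a3 and Slc39a5 were the 2 of the 10 listed importers separated downwards on this scale, where 6.58% of all tested genes were. The log2 difference of -0.64 (SE 0.40, adjusted p = 0.687) did not pass the adjusted threshold, and in CPM the groups overlapped.

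Slc39a11 (chr11:113134467-113541227, minus strand) varied least of the importers after TMM scaling. Its counts were 1087, 726 and 922 against 1273, 442 and 566. After TMM scaling these became 86.0, 78.8 and 103 CPM against 87.6, 93.2 and 96.6 CPM. The coefficient of variation over all 6 libraries was 9.46%, the lowest of the 10, compared with 42.0% for Slc39a1 and 48.6% for Slc39a5. Without that scaling it was 41.1%, and Slc39a8 was lowest at 39.6%. The log2 difference was 0.05 (SE 0.36, adjusted p = 0.971), with a 95% interval from -0.65 to 0.75, so smaller changes in either direction could not be seen here.

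Slc39a4 (chr15:76496580-76504172, minus strand) is the family member best known for responding to dietary zinc in enterocytes. Its counts were 250, 227 and 239 against 449, 82 and 105. The TMM-scaled levels were 19.8, 24.6 and 26.7 CPM on standard chow and 30.9, 17.3 and 17.9 CPM on zinc depleted chow. The zinc depleted values lay on both sides of the standard diet values. The log2 difference was -0.10 (SE 0.38, adjusted p = 0.945), with a 95% interval from -0.85 to 0.65, and its sign turned on leaving out standard replicate 3 (0.046) or either of zinc depleted replicates 2 (0.089) and 3 (0.075). Per Slc39a5 count there were 1.34, 2.27 and 2.66 Slc39a4 counts on standard chow and 6.32, 4.10 and 3.00 on zinc depleted chow. The divisor Slc39a5 was itself lower with zinc depletion (log2 difference -1.24), so this ratio is not a separate result about Slc39a4. The share of all genes separated in such a ratio was not computed.

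Slc39a14 (chr14:70540678-70588914, minus strand) had TMM-scaled levels of 22.1, 22.1 and 27.6 CPM against 24.3, 19.4 and 14.8 CPM, with a log2 difference of -0.29 (SE 0.36). Slc39a10 (chr1:46845872-46964964, minus strand) had 9.41, 16.9 and 10.1 CPM against 15.8, 17.5 and 13.7 CPM, with a log2 difference of 0.37 (SE 0.38). The groups overlapped for both, and the adjusted p-values were 0.823 and 0.785. Slc39a6 (chromosome 18, minus strand) had 2.37, 2.06 and 3.58 CPM against 4.33, 3.58 and 2.05 CPM, and Slc39a7 (chr17:34247243-34250656, minus strand) 1.50, 2.28 and 3.36 CPM against 3.58, 1.90 and 4.10 CPM. These low genes, with 9 to 63 counts per library, had log2 differences of 0.33 (SE 0.51) and 0.44 (SE 0.54). Both differences were smaller than their standard errors.

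The composition of the ZIP counts within a library does not depend on library scaling. Slc39a1 made up 11.5%, 19.8% and 25.6% of the counts of the 10 genes on standard chow and 30.6%, 32.4% and 33.6% on zinc depleted chow, and the nearest libraries of the 2 diets had Wilson 95% intervals of 24.0% to 27.3% and 29.3% to 32.0%. The mean was 19.0% ± 7.08 on standard chow and 32.2% ± 1.51 on zinc depleted chow (SD, n = 3 each), a difference of 13.2 percentage points. Slc39a5 made up 7.02%, 4.62% and 3.36% on standard chow and 1.60%, 1.47% and 2.04% on zinc depleted chow, with means of 5.0% ± 1.86 and 1.70% ± 0.30. For neither gene did the groups overlap, and the spread was wider on standard chow for both. With 3 libraries against 3 an exact permutation test cannot go below p = 0.10, so no such test was run on the shares.

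Of the other shares, that of Slc39a8 was separated upwards, at 10.5%, 9.29% and 10.6% against 11.3%, 11.3% and 12.0%. Slc39a11 (41.0%, 33.5% and 34.5% against 28.7%, 32.5% and 33.0%), Slc39a14 (10.5%, 9.43% and 9.23% against 7.95%, 6.76% and 5.08%) and Slc39a3 (3.63%, 3.74% and 2.13% against 1.98%, 1.54% and 1.34%) were separated downwards. The shares of Slc39a4, Slc39a6, Slc39a7 and Slc39a10 overlapped. Divided by the summed counts of the 10 importers in the same way, 1.53% of all tested genes were separated upwards and 9.77% downwards. Shares add up to a whole, so a higher share of Slc39a1 lowers the others and the 10 shares are not separate results.

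**Figure D4:**
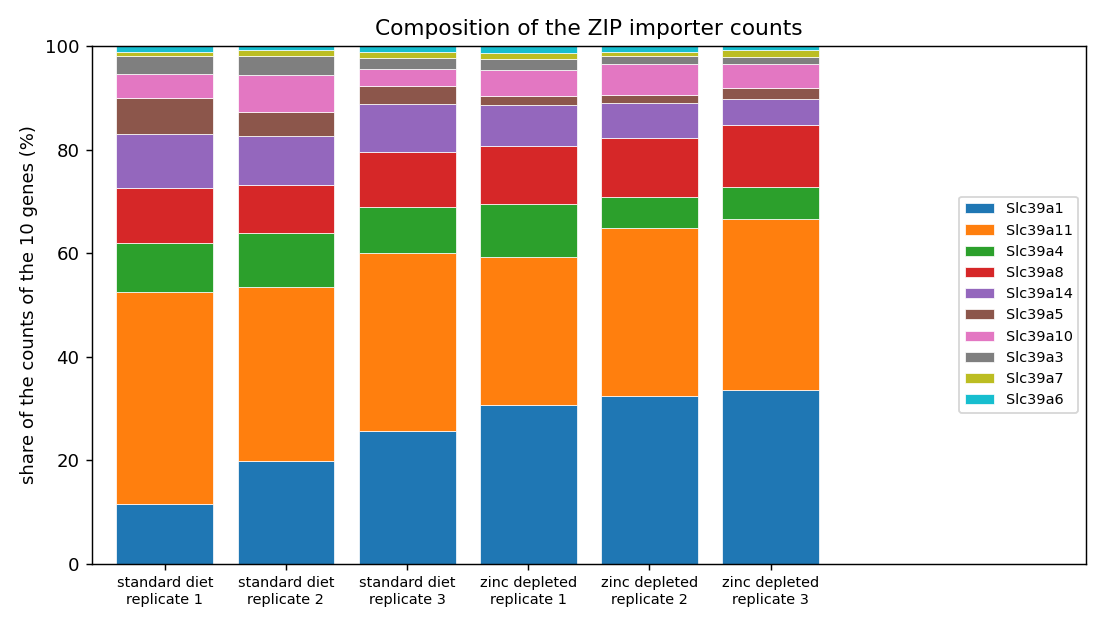
Share of the summed counts of the 10 ZIP genes held by each gene, in percent, 1 stacked bar per library, standard diet at the left and zinc depleted at the right. The Slc39a1 share runs from 11.5% to 25.6% in the standard diet libraries and from 30.6% to 33.6% in the zinc depleted libraries.

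Pairwise ratios restate the same composition and are not separate results. Slc39a1 and Slc39a5 were the highest and the lowest of the listed importers in the diet comparison, so a wide gap in their ratio follows from that. The share of all genes separated in such ratios was not computed. Slc39a1 had 1.63, 4.29 and 7.60 counts per Slc39a5 count on standard chow and 19.1, 22.1 and 16.5 on zinc depleted chow. It had 0.280, 0.591 and 0.742 counts per Slc39a11 count on standard chow and 1.07, 0.998 and 1.02 on zinc depleted chow. Slc39a1 was thus below Slc39a11 in raw counts in all 3 standard diet libraries, and the genes were about level in the zinc depleted ones.

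MTF-1 binds metal response elements, whose conserved core was searched as TGCACNC or TGCGCNC on either strand in the 250 bases before the canonical start of each gene (GRCm39). At least 1 match lay in the windows of Slc39a3, Slc39a5, Slc39a7, Slc39a8 and Slc39a11, that is 5 of the 10 importers, where 21.9% of 21770 protein-coding windows hold one. The stretches around the match are shown for 3 of these genes in which it overlaps no annotated exon. Among them is Slc39a5, the lowest of the 10 importers in the diet comparison. The motif is in capitals, and the sequence is that of the gene's strand.
Slc39a3, chr10:80873267-80873313, minus strand: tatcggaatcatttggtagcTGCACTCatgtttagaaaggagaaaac
Slc39a5, chr10:128237196-128237242, minus strand: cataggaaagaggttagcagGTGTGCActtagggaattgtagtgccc
Slc39a11, chr11:113456755-113456801, minus strand: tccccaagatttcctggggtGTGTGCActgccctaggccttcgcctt
The match begins 33 bases before the start in Slc39a3, where it reads on the gene's strand, and 101 and 128 bases before it in Slc39a5 and Slc39a11, where it reads on the opposite strand. Matched windows belonged to importers with negative (Slc39a3, Slc39a5), near-zero (Slc39a11) and positive (Slc39a7, Slc39a8) log2 differences. Only the canonical start of each gene was used. For some importers, Slc39a11 among them (chr11:113134467-113541227), the window lies within the annotated gene, and other annotated starts were not searched. A match of 7 letters is a description of the sequence, and binding was not measured.

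Of the 4 Slc39a genes outside the list, Slc39a9 and Slc39a13, both of the Golgi apparatus, were tested. Slc39a9 had 395, 318 and 265 counts against 634, 84 and 87, with a log2 difference of -0.31 (SE 0.45, adjusted p = 0.836). Slc39a13 had 49, 26 and 33 counts against 31, 3 and 3, with a log2 difference of -1.53 (SE 0.63, adjusted p = 0.681). In counts the groups of Slc39a13 overlapped. In CPM it was at 6.68, 4.23 and 3.31 against 3.10, 0.404 and 0.235, without overlap, where 10.3% of all tested genes were separated downwards. The same held on the TMM scale, where 6.58% of all tested genes were. Of the zinc depleted libraries, 2 are at the level that a count of 0 allows. Slc39a2 had 8, 1 and 0 counts on standard chow and 0 in each zinc depleted library, and Slc39a12 was at 0 in all 6.

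The remaining zinc handling genes were the ZnT exporters Slc30a1 to Slc30a10, the metallothioneins Mt1 to Mt4 and Mtf1, 15 in all, of which 10 passed the filter. None was called by edgeR, DESeq2 or limma-voom, and none reached an unadjusted p below 0.05 with any of them. Under TMM scaling 9 were higher and 1 was lower with zinc depletion (Slc30a5, named after its value was seen, -0.17), where 50% of all tested genes were higher. The median log2 difference of the 10 was 0.50. Scaled by total counts only, 4 were higher and 6 lower, with a median of -0.01, where 13.1% of all tested genes were higher. Mt1 had 176, 127 and 460 counts against 697, 69 and 148, a log2 difference of 0.16 (SE 0.59). Mt2 had 12, 10 and 101 counts against 171, 14 and 61, a log2 difference of 0.95 (SE 0.86). For Mt1 and Mt2 the groups overlapped. Mtf1, which encodes MTF-1, had 47, 25 and 38 counts against 87, 21 and 39, a log2 difference of 0.68 (SE 0.43, adjusted p = 0.694). On the TMM scale Mtf1, Mt3, Slc30a2 and Slc30a4 were separated upwards without overlap, 4 of the 10 tested genes, and none was separated downwards. Over all tested genes the shares were 3.51% upwards and 6.58% downwards. In CPM none of the 10 was separated. Mt3 had few counts, 9, 6 and 8 against 14, 11 and 11. Mt3, Slc30a2 and Slc30a4 are named here after their values were seen.

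Genes whose pattern over the 6 libraries was most like that of an importer were found by the root mean square difference of centred log2 CPM, over 9748 genes. For Slc39a1 these included Tmem125 (0.135) and Tpm4, a tropomyosin (0.141). For Slc39a4 they were Preb, which acts in vesicle export from the endoplasmic reticulum (0.0617), Slx9 (0.0959) and Pkp2, a desmosomal plakophilin (0.0966). With 6 libraries these are the nearest of many genes and carry no test.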

How the data were processed

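The deposited table holds raw counts of reads for each gene, as whole numbers with 1 column per library. Per the labels, libraries were read single-end on an Element AVITI. The submitters' processing notes name FastQC, Trimmomatic 0.39, STAR 2.7.10a, DESeq2 and build mm39. Of the counting program, its use of strand and its handling of reads with several matches, nothing is given in the sources used here. Of 55414 identifiers, 54749 were found in GENCODE M39 (GRCm39), which gave symbols, positions and canonical transcript lengths.

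Counts were tested with edgeR 4.0.16 (R 4.3.3; TMM, filterByExpr, quasi-likelihood F test, diet as the only term, two-sided), with p-values adjusted over all 9749 tested genes at 0.05. The SE was obtained as the absolute log2 difference over the root of F. The 95% intervals are a normal approximation from this SE, and are too narrow for so few libraries. The biological coefficient of variation was 44.0%. Levels between genes were compared per kb, within libraries, by exact sign-flip tests. Wilson intervals and the limits at a count of 0 reflect counting error alone, because reads lacked molecular identifiers and need not be independent. The script was tested on simulated data with planted changes larger than any importer difference under TMM scaling. That test does not bear on how well changes of the size seen here would be found. Alternatives were DESeq2 1.42.0, limma-voom (limma 3.58.1), other scalings and filters, a replicate block and leaving out each library. The text names all 10 importers, the other Slc39a genes, Mt1, Mt2 and Mtf1, and the 3 genes most like Slc39a1 and Slc39a4, of which 1 is not reported here. The members and lists were chosen with earlier results of these data known.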

Additional observations from a re-analysis of the deposited data

How the results depend on the processing

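No importer was called under any of the 14 alternatives to the edgeR result, although 76 genes of the whole table were called with no filter on low counts and 28 without standard replicate 3. Of 140 recomputed log2 differences, 131 kept their sign. With total counts only, Slc39a6 came to -0.13, Slc39a7 to -0.12, Slc39a8 to -0.19, Slc39a10 to -0.33 and Slc39a11 to -0.64, so that 1 importer was higher; this scaling lowers the median of all genes to -0.67. With single libraries left out, Slc39a11 ran from -0.033 (without standard replicate 2) to 0.21, Slc39a4 from -0.42 to 0.089, Slc39a1 from 0.62 to 1.48 and Slc39a5 from -1.33 to -1.05, and 5 to 7 importers were higher. Of the 10 ranks, 4 stayed in the standard diet libraries alone, 6 in the zinc depleted libraries alone, 3 by coding length and 8 to 10 with 1 library left out. The following were chosen after seeing the data. The Slc39a5 share difference was -5.77 percentage points per transcript length and -4.12 to -2.29 with 1 library left out, and that of Slc39a1 was 9.51 to 16.6. Same-numbered libraries correlated at 0.147, -0.058 and 0.248 in their deviations. Differently numbered libraries were not compared, so these values cannot decide whether the numbers pair libraries. With the replicate block 0 importers were called, 6 were higher, Slc39a1 was 1.10 and Slc39a5 was -1.24. Slc39a6, Slc39a7 and Slc39a13 had at most 63 counts in any library.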
